A study of Mus musculus with 2 samples.

Results

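CTCF ChIP-seq sites whose nearest protein-coding gene start belonged to an olfactory receptor (Olfr) or a vomeronasal receptor of either family (Vmn1r, Vmn2r) were described in embryonic mouse lung. The rule used position alone: for each summit of the optimal peak list on chromosomes 1 to 19 and X, the nearest protein-coding transcription start site (TSS) of GENCODE M21 was found, and the summit was kept where that gene was a receptor. It kept 252 of 54943 sites, or 0.459%: 209 nearest an Olfr gene, 18 nearest a Vmn1r gene and 25 nearest a Vmn2r gene. They lay on 18 chromosomes and are called receptor sites here. The material was pulverised lung of strain B6NCrl at embryonic day 14.5, from male and female embryos, with tissue of several dissections combined. The 2 samples form 1 group, biological replicates 1 and 2, and were recorded under the same biosample and donor, so the spread between them may be technical. No treatment, genotype or second tissue was compared, and the lists hold no gene expression, so the tissue label could not be checked by marker genes. Peak lists hold no read counts, so the depth is unknown.

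Olfactory receptors are G protein-coupled receptors that detect odorants in sensory neurons of the nose. Vmn1r and Vmn2r receptors detect pheromones and related cues in the vomeronasal organ. All 3 families arose by repeated local duplication, and their genes stand in long tandem clusters. A mature olfactory sensory neuron expresses a single olfactory receptor allele while the others are kept silent in compact chromatin. CTCF is a zinc-finger DNA-binding protein that reads a long asymmetric motif and, with cohesin, anchors chromatin loops, often between motifs that point toward each other.

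The motif was taken from the data as a matrix 20 bases wide, whose consensus is printed first. The other lines are 60 bases of the mm10 genome around the best word at selected receptor sites, read 5′ to 3′ on the strand of the motif, with the 20-base word in capitals. The strongest Olfr and Vmn2r sites, 3 further strong sites, a promoter site and a site just outside a cluster are shown because the results below return to them. Words scoring at least 10.7 bits were counted as a match, a level passed by 1% of windows moved 1 kb from a summit.
Consensus: GGCCACCAGGGGGCACTATA
Olfr94 (word at chr17:37203812-37203831, minus strand): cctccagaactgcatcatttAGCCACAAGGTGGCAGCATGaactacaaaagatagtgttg
Olfr275 (chr4:52726825-52726844, minus strand): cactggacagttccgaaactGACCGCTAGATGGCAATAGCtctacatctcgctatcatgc
Olfr291 (chr7:84779328-84779347, minus strand): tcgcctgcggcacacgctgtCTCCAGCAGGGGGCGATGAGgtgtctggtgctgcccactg
Olfr155 (chr4:43861329-43861348, minus strand): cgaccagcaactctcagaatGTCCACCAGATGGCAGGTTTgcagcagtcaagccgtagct
Vmn2r7 (chr3:64791099-64791118, minus strand): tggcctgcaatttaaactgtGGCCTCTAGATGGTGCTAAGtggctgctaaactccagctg
Olfr557 (chr7:102695574-102695593, plus strand): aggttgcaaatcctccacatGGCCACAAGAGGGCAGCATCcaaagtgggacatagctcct
Olfr90 (chr17:37083528-37083547, plus strand): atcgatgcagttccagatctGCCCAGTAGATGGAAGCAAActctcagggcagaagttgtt
Each name is that of the nearest receptor gene. The words at Olfr94 and Olfr557 scored 20.8 and 21.8 bits and that at Vmn2r7 scored 13.7 bits.

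Receptor sites were thinly spread. GENCODE M21 lists 1466 protein-coding receptor genes (1135 Olfr, 209 Vmn1r and 122 Vmn2r) among 21755 protein-coding genes. The bases nearer to a receptor start than to any other protein-coding start, called receptor territory here, summed to 55.1 Mb, and they held 4.57 sites per Mb. All other territory held 21.8 sites per Mb, so the density in receptor territory was 20.9% of that elsewhere. Olfr territory held 6.37 sites per Mb, Vmn1r territory 1.91 and Vmn2r territory 1.94. Of the receptor genes, 153, or 10.4%, were the nearest gene of any site, a share that was not counted over all protein-coding genes. Territory per gene was 37.6 kb for receptor genes and 123 kb for other protein-coding genes.

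Base composition differed between the territories as well. Receptor territory had a GC content of 38.9% against 41.8% elsewhere, and 50.9% of its bases were soft-masked as repeats against 34.0%. Counting only unmasked bases and the sites in them, density was 8.10 sites per Mb in receptor territory and 26.6 elsewhere, a ratio of 30.4%. In 100 kb bins with 38 to 40% GC, receptor territory held 1.74 sites per Mb (196 bins) and other territory 7.54 (4855 bins). With 36 to 38% GC the values were 0.947 (138 bins) and 3.22 (3987 bins), and with 40 to 42% GC they were 7.49 (67 bins) and 15.1 (4618 bins). The receptor value was the lower in each of these 3 classes. Of the 252 receptor sites, however, their receptor bins held only 34, 13 and 50, in the order given. Receptor bins with 34 to 36, 42 to 44 and 44 to 46% GC held 2, 9 and 6. Most receptor sites thus lay in no receptor bin of the classes counted, whereas most other sites lay in a bin of other territory. The receptor densities by class may therefore be too low, and their gaps cannot be set against that over the whole territories.

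The low share was not limited to strong peaks. Receptor territory makes up 2.15% of the sequenced bases. In the list from pooled reads, 0.330% of the 10000 strongest peaks lay in it (95% Wilson interval 0.235 to 0.463), as did 0.585% of ranks 10001 to 30000 and 0.300% of ranks 55001 to 100000. Even among ranks 200001 to 299910, which include peaks far below the optimal threshold, the share was 0.627% (0.579 to 0.677). In the replicate lists, the same lowest ranks reached 0.793% in replicate 1 and 0.971% in replicate 2. Every one of these shares was below the territory's share of the bases.

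Most receptor genes stood in clusters. Receptor starts at most 500 kb apart, with at least 5 genes, formed 46 clusters that held 1411 genes over 54.7 Mb, and the other 55 genes formed 33 small groups. The clusters held 306 sites, 125 of them receptor sites and 181 nearest to some other gene inside the cluster span, which gives 5.59 sites per Mb against 21.5 over all chromosomes used. The 12 clusters with no start of another protein-coding gene held 2.48 sites per Mb, and the 34 clusters with such a start held 6.04. No site lay inside 10 clusters, which together hold 261 receptor genes over 10.5 Mb.

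**Figure D1:**
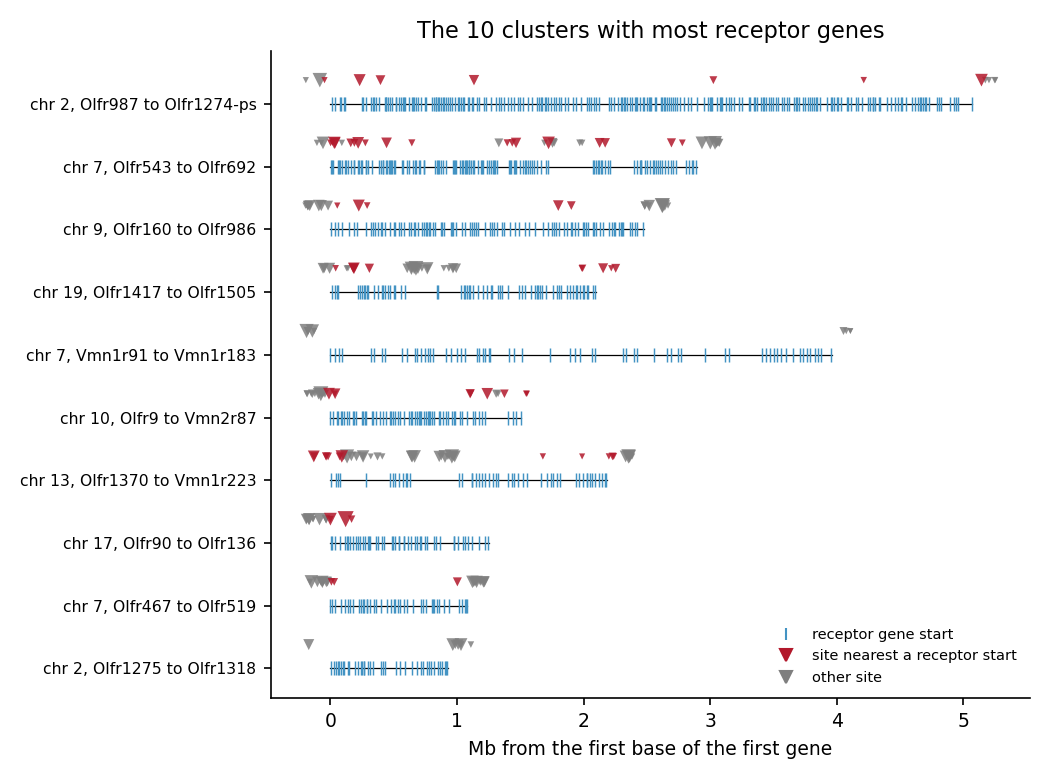
The 10 clusters with most receptor genes, drawn from the first base of the first gene (x axis, Mb); blue ticks are receptor gene starts and triangles are CTCF sites within 200 kb (red, receptor sites; grey, other sites), larger for a higher signal. The chromosome 2 cluster of 227 genes holds 5 sites and the chromosome 7 Vmn1r cluster of 65 genes holds none.

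The largest cluster, from Olfr987 to Olfr1274-ps on chromosome 2 (mm10, 85330779 to 90403897), held 227 Olfr genes in 5.07 Mb and only 5 sites, all of them receptor sites. They stood nearest Olfr996 (signal 221), Olfr1009 (131), Olfr1066 (151), Olfr1177-ps (66.9) and Olfr1243 (29.7). The replicate lists gave 119 and 100.4 at Olfr996 and 17.9 and 10.7 at Olfr1243, in the order replicate 1, replicate 2. Between the sites at Olfr1066 and Olfr1177-ps a stretch of 1892 kb with 83 receptor genes had no site.

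The cluster from Olfr543 to Olfr692 on chromosome 7, which also surrounds the beta-globin genes, differed in density: 129 genes over 2.89 Mb held 25 sites, of which 18 were receptor sites, or 8.64 sites per Mb. On chromosome 9, 95 genes from Olfr160 to Olfr986 had 5 sites, with 1510 kb free of any. On chromosome 19, 66 genes from Olfr1417 to Olfr1505 had 25 sites, 8 of them receptor sites. The clusters with most sites, 28 each, were on chromosome 7 (Vmn1r55 to Olfr1350), chromosome 13 (Olfr1370 to Vmn1r223) and chromosome 14 (Olfr722 to Vmn2r89). In all 3, the majority of sites (23, 24 and 24) were nearest to a gene that is not a receptor.

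The longest cluster without a site was a Vmn1r cluster on chromosome 7, from Vmn1r91 to Vmn1r183 (20099680 to 24063554): 65 receptor genes over 3964 kb with 0 sites. Its span also held 38 starts of other protein-coding genes. The next longest site-free stretches inside clusters were 3332 kb on chromosome 17 (32 receptor genes of the Vmn2r90 to Vmn1r237 cluster), 1924 kb on chromosome 7 (16 genes of the Vmn2r29 to Vmn2r37 cluster), the 1892 kb on chromosome 2 given above and 1585 kb on chromosome 9 (37 genes, Olfr24 to Olfr18). Vomeronasal genes thus occupied the 3 longest. Whether reads could be placed uniquely in such recently duplicated sequence was not tested.

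The low share of intervals with a site was seen at every spacing of neighbouring genes. Where both neighbouring starts were receptors, 1287 intervals covered 41.7 Mb and 5.91% held a site. Where neither was a receptor and the starts were at most 500 kb apart, 69.4% of 19071 intervals held one. Among intervals of 20 to 50 kb the shares were 6.38% of 580 (4.66 to 8.67) and 73.2% of 5012 (72.0 to 74.4). In the class of 100 to 500 kb they were 13.6% of 59 (7.03 to 24.5) and 91.3% of 4277 (90.5 to 92.2). The intervals of the 2 kinds did not overlap in any of the 5 length classes.

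**Figure D2:**
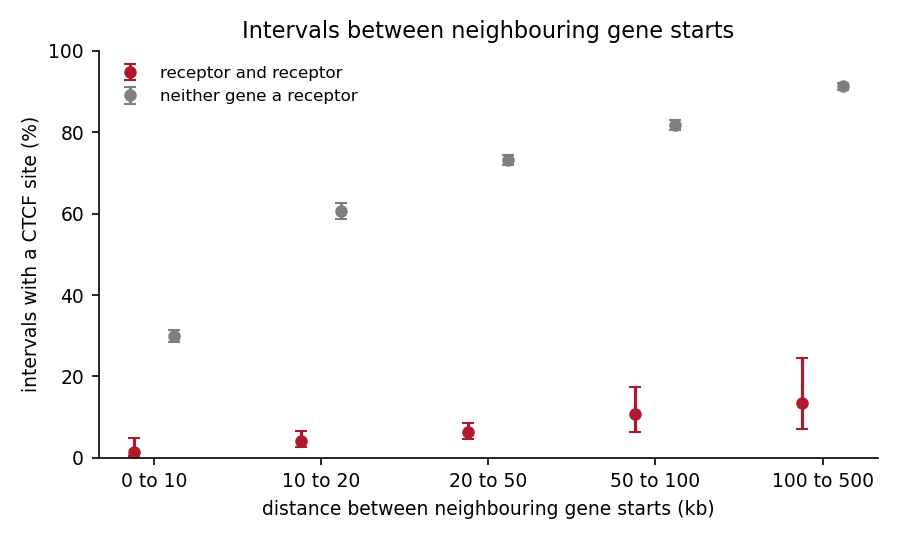
Share of intervals between neighbouring protein-coding gene starts that held a CTCF site (y axis, %) by the distance between the starts (x axis, kb); bars are 95% Wilson intervals. Receptor neighbours run from 1.38% to 13.6% and other neighbours from 29.8% to 91.3%.

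The density of all sites fell at the cluster ends. Across the 92 ends, the 20 kb just outside held 23.9 sites per Mb and the 20 kb just inside held 9.24. Further out, 50 to 100 kb from the end, the density was 32.2, and more than 500 kb inside it was 3.28. The median signal of the 44 sites in the 20 kb outside was 124, against 59.6 for the 17 sites in the 20 kb inside. Starts of other protein-coding genes changed along the same line, with 14.7 per Mb in the 20 kb outside and 2.72 per Mb in the 20 kb inside, and their part in the density was not tested. Bases beside more than 1 cluster were counted for each.

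**Figure D3:**
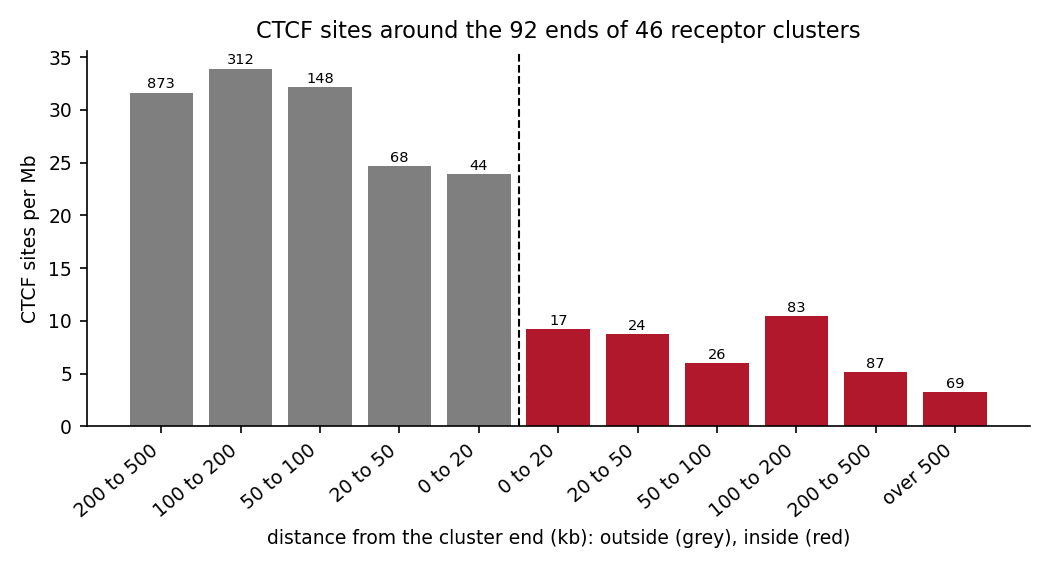
Density of CTCF sites (y axis, sites per Mb) by distance from the nearest end of a receptor cluster (x axis, kb), outside in grey and inside in red, with the number of sites above each bar. Density is 23.9 in the last 20 kb outside and 9.24 in the first 20 kb inside.

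Receptor sites themselves stood both inside and beside the clusters. Of the 252, 88 lay in the interior (over 50 kb from both ends), 37 inside but within 50 kb of an end, 41 outside within 50 kb, 53 further outside and 33 at small groups. Sites within 50 kb of an end, on either side, were thus 78 of the 219 that belong to clusters, or 35.6%. Within 10 kb of an end there were 23. Olfr sites were interior in 69 of 209, Vmn1r sites in 7 of 18 and Vmn2r sites in 12 of 25.

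The 5 motif-bearing receptor sites nearest to a cluster end were 2 at Olfr90, on chromosome 17, and 1 each at Olfr279, Olfr155 and Olfr1375. The Olfr90 site printed above lay 0.343 kb outside the cluster and had a signal of 252, with 131 in replicate 1 and 120.0 in replicate 2. A second Olfr90 site, 0.975 kb inside, had a signal of 33.4, with 13.4 and 19.2. The outer of these neighbours was the stronger in both replicates, although only 1.32 kb separated them. The site 3.74 kb beyond Olfr155 had a signal of 317 (181 and 136), that 2.05 kb beyond Olfr279 had 123 (64.4 and 58.0), and that 4.34 kb beyond Olfr1375 had 93.8 (58.0 and 33.7).

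The outermost motifs of a cluster showed no shared direction. The outermost motif-bearing receptor site at each end of the 29 clusters with at least 2 of them pointed into the cluster in 26 cases and away from it in 32, so 44.8% pointed inward (95% Wilson interval 32.7 to 57.5). Not all of these 58 sites were close to the end they were taken for: 23 lay over 100 kb from it, and 1 of those, nearest Olfr412, stood beyond the opposite end. Among the 35 within 100 kb, 16 pointed inward and 19 away, or 45.7% inward (30.5 to 61.8). Both outermost sites pointed inward in 5 clusters, both outward in 8, and they differed in 16. Taking instead the first motif-bearing site of any kind beyond each of the 92 ends, 43 pointed in and 49 pointed out, or 46.7% (36.9 to 56.9). The first site of any kind beyond an end stood at a median of 36.9 kb (quartiles 15.3 and 69.4) and was a receptor site in 36 of 92 cases.

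Among neighbouring motif-bearing sites 20 to 500 kb apart, 60 pairs consisted of receptor sites only. Their motifs converged in 11 pairs, or 18.3% (10.6 to 29.9), diverged in 13 and pointed the same way in 36. Of 18016 pairs with no receptor site, 27.2% converged (26.6 to 27.9). That share lay within the interval of the receptor pairs, so a difference in convergence was not detectable with 60 pairs.

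The signal of receptor sites was ordinary. Their median signal was 65.8, against 62.3 over all optimal sites, and the median receptor site stood at percentile 51.6 of the list. In the strongest 10% of all sites were 10 receptor sites, or 3.97%, and in the weakest 10% were 17, or 6.75%, with no interval taken for either. The weakest 10% held 10 of 209 Olfr sites (4.78%), 2 of 18 Vmn1r sites (11.1%) and 5 of 25 Vmn2r sites (20%). By family, the medians were 67.8 for Olfr, 44.0 for Vmn1r and 64.0 for Vmn2r, with ranges of 6.97 to 427, 18.3 to 309 and 15.1 to 214 that overlapped widely. Sites outside a cluster but within 50 kb of its end had a median of 88.2 and interior sites 69.2.

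All 252 receptor sites had a peak in the list of replicate 1 and 249 in that of replicate 2. Median signals were 37.8 in replicate 1 and 29.6 in replicate 2, and the lists are not scaled to each other (median ratio 1.23 over all sites). The percentile of a receptor site differed between replicates by a median of 4.29 points, against 4.68 over all sites. Of the receptor sites, 92.5% were also in the conservative list, against 87.5% of all sites. The largest difference was at a site nearest Vmn2r82, at percentile 53.5 in replicate 1 and 23.6 in replicate 2 (signals 39.0 and 13.3). Next came a site nearest Olfr1324 (37.2 and 7.76) and the weaker of a close pair near Olfr291 (52.3 and 23.7). The smallest were at Olfr94 (99.5 in both), Vmn2r1 (80.6 and 80.5) and Olfr556 (50.4 and 50.3).

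**Figure D4:**
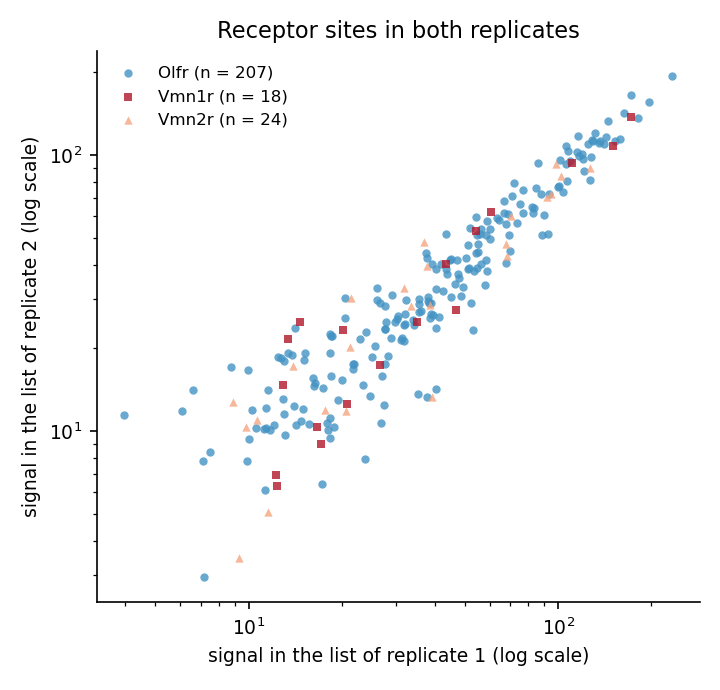
Signal of the 249 receptor sites with a peak in both replicate lists, replicate 1 on the x axis and replicate 2 on the y axis, both on a log scale, by receptor family. The strongest site in both, nearest Olfr94, has 234 and 193; scatter is wider among weak sites.

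The strongest receptor site, 2811 bp upstream of Olfr94 in the interior of the Olfr90 to Olfr136 cluster beside the major histocompatibility complex on chromosome 17 (peak chr17:37203654-37203945), had a signal of 427 and rank 222 among all sites. Replicate 1 gave 234 and replicate 2 gave 193. The next was the site nearest Olfr275 at 353 (197 and 156), which stood 87.8 kb upstream of a small group on chromosome 4. Then followed Olfr291 at 335 (171 and 164) and Olfr155 at 317 (181 and 136), both outside their clusters. The remaining 6 of the strongest 10 were nearest Vmn1r40 (309), Olfr220 (304), Olfr1396 (277), Olfr1375 (272), Olfr283 (264) and Olfr459 (259), and 9 of the 10 held a motif match. The strongest Vmn2r site, with 214 (126 and 89.9), lay in an intron of Vmn2r7, 53.7 kb from its start. The lowest percentile of these 11 sites in either replicate was 82.5.

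The exception among the strongest 10, the Vmn1r40 site, had a best word at 10.5 bits, just under the threshold. Its 60 bases are shown for that reason.
Vmn1r40 (word on chr6, start 89679566, plus strand): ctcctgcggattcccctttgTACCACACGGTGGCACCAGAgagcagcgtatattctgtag
Another site 0.803 kb away had a signal of 256. Both lay outside the edge of a Vmn1r cluster on chromosome 6 that itself held no site over 564 kb.

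A CTCF motif match within 50 bp of the summit was found at 163 of 252 receptor sites, 64.7% (58.6 to 70.3), against 56.2% of all optimal sites. Other sites at a like distance from a TSS matched in 63.3% and other sites outside genes in 59.9%, and both values lay within the interval of the receptor sites. Without the 28 sites nearest Olfr1324, described below, of which 0 matched, the receptor share was 72.8% (66.6 to 78.2). Both values lay below that interval, a comparison chosen after the values were seen. Motif and signal are related, so the share was also taken in 5 steps of 20% of the list by signal. In the weakest step, 52.8% of 36 receptor sites matched (37.0 to 68.0) against 32.5% of other sites (31.7 to 33.4), and in the strongest step 88.9% of 36 (74.7 to 95.6) against 79.3% (78.5 to 80.1). In the middle step the shares were 58.6% (46.9 to 69.4) and 56.0%. The interval lay above the share of other sites in the 2 weakest steps and held it in the other 3. These steps include the 28 sites nearest Olfr1324, whose median percentile was 48.6, and were not taken without them. By position, 81.8% of interior sites matched (72.5 to 88.5), 62.2% of sites inside the edge (46.1 to 75.9), 65.9% of sites outside the edge (50.5 to 78.4), 34.0% of sites further outside (22.7 to 47.4) and 69.7% of sites at small groups (52.7 to 82.6).

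**Figure D5:**
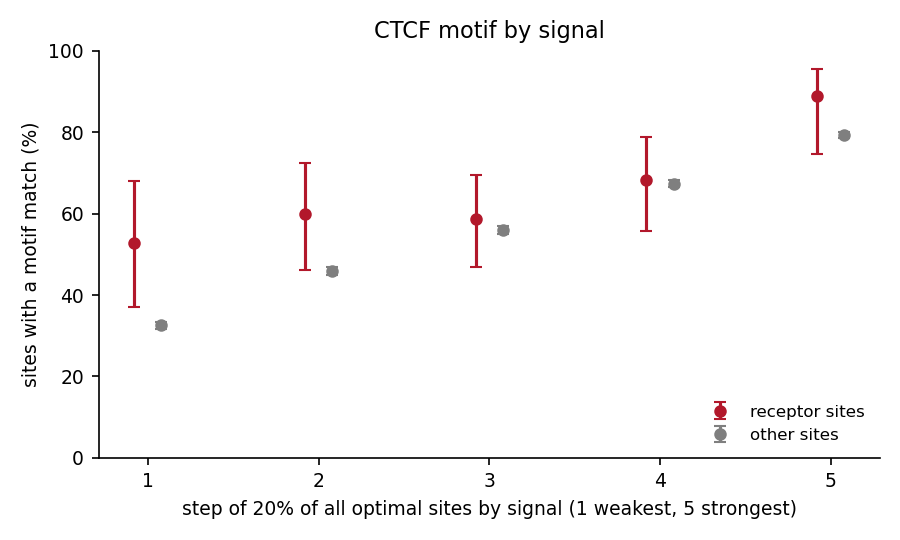
Share of sites with a CTCF motif match (y axis, %) in 5 steps of all optimal sites by signal (x axis, weakest to strongest); red, receptor sites; grey, other sites; bars are 95% Wilson intervals. Receptor sites run from 52.8% in the weakest step to 88.9% in the strongest. They include the 28 sites nearest Olfr1324, of which 0 match.

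Among the sites further outside, 28 stood at 1 locus on the X chromosome. These 28 receptor sites shared the nearest start of Olfr1324, the most for any receptor gene, and stood 121 to 195 kb from it with a median spacing of 2.15 kb. Of these, 26 lay in the body of Firre, a non-coding RNA gene (processed transcript, chrX, 50555744 to 50635321, minus strand) known for local tandem repeats and for CTCF binding on the X chromosome, and the other 2 lay just beside it. Their signals ran from 18.1 to 104 with a median of 59.6 (replicate medians 31.9 and 23.7), and 0 of 28 reached the motif threshold, which allows a share of up to 12.1% by the Wilson interval. Without them, 18 of the remaining 25 outside sites matched (72.0%, 52.4 to 85.7), and 163 of 224 receptor sites matched, 72.8% (66.6 to 78.2). These sites are receptor sites only by the distance rule, since Firre is not protein-coding.

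The Firre sites nevertheless resembled one another. When 121-base windows around the summits were compared over shifts of up to 100 bp on both strands, 22 of the 28 had a partner with at least 80% identity, and the median best identity was 90.9%. The same best word was found at 5 of them, with signals from 30.5 to 104. Of the lines below, 2 hold that word and 1 holds a like word from another copy. They are shown to let the repeat be seen.
Firre, start 50566539 on chrX, minus strand: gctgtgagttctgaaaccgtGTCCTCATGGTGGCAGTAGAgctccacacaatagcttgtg
Firre, start 50572361 on chrX, minus strand: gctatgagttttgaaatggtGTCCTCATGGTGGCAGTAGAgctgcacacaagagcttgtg
Firre, start 50569294 on chrX, minus strand: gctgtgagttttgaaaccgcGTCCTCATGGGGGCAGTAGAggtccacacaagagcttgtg
Counted from 1 at the 5′ end of the consensus, the shared word differs from it by G2T, A5T, C7A, A8T, G11T, C16G and T19G. At position 8, T was found in 20 of the 28 best words (71.4%) but in 2 of the 163 words that passed the threshold, of which 98.8% had A. The matrix scores A at 2.20 bits and T at -8.84 bits at that position. A word with T there rarely passes, so the threshold itself largely set this contrast. The letters GGCAG at positions 12 to 16 stood in 23 of the 28 words and in 36 of the 163.

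A further group of 8 sites, nearest Olfr1507 on chromosome 14, lay 84.8 to 854 kb from it. For these 8 the nearest gene entry of any type was a T-cell receptor V gene or pseudogene. Signals were 23.1 to 54.1 with a median of 32.8 (replicate medians 16.9 and 17.6), and all 5 of the motif matches were on the plus strand. As no T-cell receptor V segment counts as protein-coding in the annotation, the distance rule places these sites with the olfactory gene. Counting every annotated gene type, 143 of the 252 sites had a receptor gene or receptor pseudogene as nearest entry and 109 had another.

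Of all receptor sites, 160 (63.5%) lay outside every annotated gene, against 40.8% of all optimal sites. The median distance to the receptor start was 17.4 kb, against 23.5 kb to the nearest start over all optimal sites. Upstream of the start were 134 receptor sites (53.2%), against 43.7% of all sites. Without the sites nearest Olfr1324, all of them upstream, the receptor values were 14.1 kb and 47.3%. In exons were 13.1% (9.48 to 17.8), against 12.1% of all sites. In soft-masked sequence were 13.1% (9.48 to 17.8), against 19.6%. Apart from Firre, described above, and receptor genes, the gene bodies that held at least 3 were Gm26551 with 5 sites, Aoah with 4, and Rap1gap2 and Gm20715 with 3 each. The bodies of protein-coding receptor genes held 28, with a median signal of 46.1 and a motif match at 18.

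Coding sequence held 6 of the 252 receptor sites, against 1998 of all 54943 optimal sites. In the coding sequence of a receptor gene were 5 of them: Olfr1368 (signal 68.9), Olfr304 (46.3), Olfr543 (39.0), Olfr1358 (28.2) and Olfr70 (17.2). In the 2 replicates the Olfr1368 site had 37.9 and 29.6 and the Olfr70 site 7.12 and 7.80. A sixth coding-sequence site was in Tespa1, near Vmn2r84. Of the 5, 2 held a motif match.

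Very few receptor promoters had a site. Within 1 kb of the start, 7 of 1135 Olfr genes had one, 0.617% (0.299 to 1.27), as did 0 of 209 Vmn1r and 0 of 122 Vmn2r genes, which allows up to 1.80% and 3.05%. Among all protein-coding genes 26.8% had one. Within 10 kb the counts were 80, 4 and 2, or 5.87% of all receptor genes, against 57.3% of all protein-coding genes. The highest of the promoter sites stood 327 bp upstream of Olfr557, with a signal of 207 (127.0 in replicate 1, 80.9 in replicate 2) and the word printed above. Those at Olfr156 (151, replicates 90.2 and 60.4) and Olfr658 (121, replicates 67.7 and 56.0) lay 273 and 17 bp upstream and had no match. Those at Olfr556 (64.5), Olfr1499 (55.6) and Olfr304 (46.3) lay downstream of the start and had one. Olfr1342 had a pair of the weakest receptor sites, at 11.4 and 6.97, of which the weaker had no peak in replicate 2.

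Genes that serve smell and pheromone sensing without being receptors were listed for comparison. Of 16 signal transduction genes, 5 had a promoter site, 31.2% (14.2 to 55.6): Gng8, a G protein gamma subunit (signal 318, replicates 172 and 149), Pde4a, a phosphodiesterase (115), Gnal, the olfactory G protein alpha subunit (79.2), Slc24a4, a calcium exchanger (26.3), and Gnai2, an inhibitory G protein alpha subunit (23.3). Of 16 genes for receptor choice and trafficking, 6 had one: the histone demethylase Kdm1a (306), Bcl11b (125), Ebf2 (68.8), Lbr, the lamin B receptor (39.8), Ebf4 (23.9) and Reep1, a receptor transport protein (23.2). Both intervals hold the 26.8% of all genes. Omp, the olfactory marker protein, and Adcy3, the adenylyl cyclase of odour transduction, had none. Further gene families were listed by symbol alone, whether or not each member is a chemosensory receptor. A promoter site was found at 0 of 15 trace amine receptors (Taar, up to 20.4% by the Wilson interval), 0 of 19 Ms4a genes (up to 16.8%) and 1 of 35 bitter taste receptors (Tas2r126, signal 44.2). It was also found at 1 of 3 Tas1r genes (Tas1r1, 223) and 0 of 4 Fpr-rs genes (up to 49.0%, an interval that holds the share of all genes). Within 10 kb the counts were 7 of 15 Taar, 3 of 19 Ms4a, 3 of 35 Tas2r, 3 of 3 Tas1r and 0 of 4 Fpr-rs genes. Of the 5 globin genes matched, 0 had a promoter site.

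Neighbouring receptor sites of the same cluster or group stood at a median of 22.3 kb (quartiles 3.44 and 119), and 70 of 177 such pairs were within 10 kb. Against all optimal sites, the nearest other site was farther, with medians of 16.1 and 7.30 kb. Without the sites nearest Olfr1324 the receptor median was 21.5 kb. The counts of pairs in this paragraph include that group, whose median spacing was 2.15 kb. Another site within 1 kb was found for 12.7% of receptor sites (9.14 to 17.4), against 10.5% of all, and for 7.14% without the Olfr1324 group. The closest pair, 0.203 kb apart near Vmn2r25, had signals of 69.6 and 17.9. In 97 of the 177 pairs no receptor start lay between the sites, and the highest number was 83.

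Clusters with a single site inside them were also seen. The 5 of these that were receptor sites were nearest Olfr215 (signal 116), Olfr713 (85.9), Olfr427 (58.8), Vmn1r66 (18.3) and Olfr1322 (18.0). In the replicates the Olfr215 site had 60.0 and 53.7, and the Olfr1322 site had 3.96 and 11.5. The Vmn1r66 site was 2435 kb from any other site.

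Some receptor sites were near-copies of each other. The share of near-copies over all optimal sites was not measured, so the counts below have no background. Outside the Olfr1324 group, 11 of 224 sites had a partner among the receptor sites with at least 80% identity in the window comparison, made up of 4 Olfr, 2 Vmn1r and 5 Vmn2r sites. The sequences of the Vmn1r pair and of a Vmn2r trio are shown to let the copies be compared.
Vmn1r9 (chr6:57063916-57063935, minus strand): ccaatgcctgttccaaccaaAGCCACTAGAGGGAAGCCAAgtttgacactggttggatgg
Vmn1r10 (chr6:57106552-57106571, minus strand): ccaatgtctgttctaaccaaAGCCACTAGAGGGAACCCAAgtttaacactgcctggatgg
Vmn2r9 (chr5:108836321-108836340, plus strand): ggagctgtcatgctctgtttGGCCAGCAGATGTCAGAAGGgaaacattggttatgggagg
Vmn2r9 (chr5:108866951-108866970, plus strand): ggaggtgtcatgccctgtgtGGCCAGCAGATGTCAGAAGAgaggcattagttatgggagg
Vmn2r10 (chr5:109032765-109032784, plus strand): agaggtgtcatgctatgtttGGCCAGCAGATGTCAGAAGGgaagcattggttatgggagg
The Vmn1r9 and Vmn1r10 sites, 93.4% identical and 42.6 kb apart, had similar signals of 33.9 (replicates 13.4 and 21.5) and 27.9 (12.9 and 14.7). The chromosome 5 trio was less even: 52.3 (21.5 and 30.3) and 112 (68.4 and 43.0) at Vmn2r9, and 31.7 (20.7 and 11.8) at Vmn2r10. The 112 site was the highest of the 3 in both replicates. Sites near Vmn2r89 on chromosome 14 and Vmn2r22 on chromosome 6 were 92.6% identical, with signals of 22.3 and 15.1. The Olfr copies were a pair near Olfr1375 (81.0% identical, signals 272 and 93.8) and a pair on chromosome 11 near Olfr1380 and Olfr1373 (94.2%, signals 35.4 and 38.2). How reads divide among such near-copies was not tested.

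Identical motif words also occurred outside the receptor clusters. Of the 163 matched words, 37 (22.7%) were found letter for letter at another optimal site, against 25.3% over all matched sites. The most repeated were those of 2 soft-masked sites, nearest Olfr223 (signal 249, replicates 137 and 112), whose word stood at 481 optimal sites in all, and nearest Olfr1357 (signal 177, replicates 103 and 73.2), whose word stood at 90.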

How the data were processed

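The 5 narrowPeak lists on mm10 were used as deposited. Their signal values were deposited by the authors as the peak caller gave them, unscaled between lists, and the summit offset was used as deposited. Per the deposited README, the replicate lists came from alignments with 1 shared control, and the 2 lists thresholded by irreproducible discovery rate, optimal and conservative, were derived from the replicate lists and the pooled one. Which aligner, peak caller and threshold were used is not given in the sources used here.

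From the 54953 optimal peaks, 10 outside chromosomes 1 to 19 and X were dropped. A replicate's value is the strongest peak of that list holding the summit. Genes came from GENCODE M21 and sequence from the RefSeq copy of GRCm38. Odd-numbered autosomes supplied the 3000 strong sites (6 of them receptor sites) behind the motif matrix, which was tested on simulated data. Intervals are 95% Wilson intervals over sites or genes, cover counting error only, and treat neighbours as independent. With 1 group there was no test between groups. Named were the 10 strongest sites, the strongest of each family, promoter sites, the clusters with most genes or sites or longest without, the longest site-free stretches, sites nearest a cluster end, lone sites, the closest pair and the replicate extremes. Members, lists and rules were chosen with earlier results of these data known. The Firre, T-cell receptor, GC, rank, cluster-end profile and near-copy descriptions were chosen after the values were seen. Alternatives were other lists, each replicate left out, cluster, edge, promoter and motif settings. Python 3.11.15, numpy 2.4.6, pandas 2.3.3 and scipy 1.17.1 were used.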

Additional observations from a re-analysis of the deposited data

How the results depend on the processing

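No paired analysis was possible because both samples belong to 1 group. With only the strongest 10000 optimal sites, 33 receptor sites were left, 16 inside clusters and 13 at edges, the density in clusters was 0.841 sites per Mb, the median percentile was 34.8, the motif share 90.9%, 1 receptor gene had a promoter site, and density in receptor territory was 15.0% of that elsewhere. The conservative list gave 5.34 sites per Mb in clusters and a motif share of 66.3%, against 57.1% of its other sites. The strongest pooled peaks gave 5.41 and 66.4%, against 57.2% of the other peaks. A cluster gap of at most 100 kb left 80 receptor sites inside and 2.99 sites per Mb, and one of 1 Mb gave 7.10. An edge zone of 20 kb held 40 sites, and a promoter window of 5 kb held 42 receptor genes. The motif share was 47.6% with words within 100 bp and the threshold reset, 13.1% at a stricter threshold (0.1% of shifted windows) and 50.4% on even-numbered autosomes and X, which include the Olfr1324 group. Chosen after seeing the data, leaving out that group gave 72.8%, and leaving shifted windows within 200 bp of any summit out of the threshold gave 69.4% (61.7% of all sites). With either replicate left out, the motif share was 63.7% to 64.9% and the territory ratio 20.6% to 21.8%. The share of outermost motifs pointing inward stayed between 44.8% and 50%. Peak lists hold no read counts, so what depth or unique read placement limits could not be measured.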
